A study of Mus musculus with 18 samples.

Results

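A set of 9 genes named for fetal or regenerating gut epithelium, or found beside such genes here, were followed over 18 mouse cell arrays: Anxa1, Clu, Msln, Krt4, Nox1, Bex1, Sbspon, Ly6g and Glipr1. They are 9 of the 19938 genes that the arrays measure with a probe set annotated to a single gene symbol, and each is read by 1 such probe set. The members were chosen by their higher level with 4-hydroxytamoxifen (4-OHT) in intestinal organoids and by their levels in fibroblasts and pluripotent cells, so those values are given as a description with no test. The label is only in part one of function, since Bex1, Sbspon, Ly6g and Glipr1 are not standard markers of fetal gut.

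The study asked whether reprogrammed colon tumour cells (RTCs), made by induced pluripotency methods, share features with pluripotent stem cells, and what Apc mutation or induced mutant beta-catenin does to expression in different cell types. The pluripotent arrays were RTC 1, RTC 2 and RTC 3, the derivatives #45 (of RTC 1) and #9 (of RTC 3), embryonic stem cells (ESCs) of the Apc genotypes +/+, Min/+ and Min/Min, and S33 ESCs without and with doxycycline (dox). The differentiated arrays were small intestinal organoids derived from #45 without and with 4-OHT (1 uM, 2 days), embryonic fibroblasts (MEFs) derived from #45, 2 arrays without and 2 with 4-OHT (2 ug/ml, 2 days), and S33 MEFs without and with dox. Min is a truncating allele of Apc, a scaffold protein that keeps beta-catenin low and thereby restrains Wnt signalling. The organoids and MEFs from #45 all descend from 1 tumour-derived line, so no array shows the response of organoids from another line. The labels do not say what 4-OHT switches, what S33 stands for, how much dox was given, or what was changed in #45 and #9. They place RTCs, ESCs and #45 in serum medium with leukaemia inhibitory factor, organoids in Matrigel with EGF, Noggin and R-spondin, and MEFs in serum medium, while Apc Min/Min ESCs are also named beside a trophoblast stem cell medium with FGF4.

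In injured or fetal gut, the epithelium is known to leave the adult crypt programme for a state marked by annexins, clusterin and Ly6 surface proteins, a state tied to the transcriptional coactivator YAP and its TEAD partners. Wnt signalling, by contrast, maintains the Lgr5 stem cells of the adult crypt. Both programmes can be read in cultured organoids, where stem, Paneth and absorptive cells grow together.

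Values are log2 intensities after joint quantile normalization of the arrays, and the common array median of 7.93 serves as a reference level. The files carry no detection calls, so a level below that median is dim and not shown to be absent. The precision of every value is limited by the number of arrays. Identical deposited intensities recurred for 9.52 to 19.2% of probe sets among derivative #9 and the second MEF pair and for 17.3% between the Apc Min/Min and Apc +/+ ESCs, against at most 0.104% in other pairs. The deposited arrays therefore did not share 1 scale. All 14 intestinal epithelial markers were above the median in both organoid arrays, all 12 fibroblast markers in the MEF arrays and all 10 pluripotency markers in the pluripotent arrays. Fibroblast markers were also above the median in the pluripotent cultures, 9 to 12 of 12 with mean levels of 8.64 to 10.86. In such bulk samples, fewer cells of a type and less RNA per cell cannot be told apart. Apc itself lay at 9.86 to 10.97 in pluripotent arrays, 10.49 and 10.87 in organoids without and with 4-OHT and 10.52 to 10.79 in MEFs, on a probe set that does not read the Min mutation.

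Upstream sequences were available for 4 of the 9 members in the RefSeq table of build GRCm38.p6 and were searched for motifs of TEAD, of the Wnt effectors TCF/LEF and of the stress-responsive factor AP-1. Each window is the 250 bases before an annotated start. That of Nox1 (chrX:134111855-134112104, minus strand) lies inside the gene as placed below, and not before its outer end. Ly6g had windows at chr15:75155011-75155260 and chr15:75155079-75155328, the latter running past the gene's start as placed below. The motifs searched on both strands were GGAATG (TEAD), CTTTGAT (TCF/LEF, the DNA-binding partners of beta-catenin) and TGANTCA (AP-1), which do not overlap each other in the windows shown. Only the TEAD letters were found, once each upstream of Anxa1 and Bex1, and these are the 2 windows printed, 5′ to 3′ along the gene's strand with the motif in capitals.
Anxa1, chr19:20390672-20390921, minus strand: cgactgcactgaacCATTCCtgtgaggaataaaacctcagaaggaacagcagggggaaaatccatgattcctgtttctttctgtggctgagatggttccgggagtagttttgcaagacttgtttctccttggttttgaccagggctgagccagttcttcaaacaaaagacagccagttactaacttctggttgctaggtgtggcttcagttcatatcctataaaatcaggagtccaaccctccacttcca
Bex1, chrX:136215514-136215763, minus strand: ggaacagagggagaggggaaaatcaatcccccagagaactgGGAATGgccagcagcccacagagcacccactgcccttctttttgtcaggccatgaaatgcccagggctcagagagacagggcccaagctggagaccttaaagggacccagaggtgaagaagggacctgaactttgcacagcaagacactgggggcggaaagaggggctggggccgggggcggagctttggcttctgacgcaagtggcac
The first base of the motif lies 236 bases before the start of Anxa1, where it reads on the opposite strand, and 209 bases before that of Bex1. The TEAD letters occur in 12.6% of 32851 promoter windows of this length, the TCF/LEF letters in 3.21% and the AP-1 letters in 6.75%. No match was found in the windows of Nox1 and Ly6g, which says only that these letters are not in those windows. For Nox1 the bases before the gene's outer end were not searched. A match is a description of the sequence and not a binding site.

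In the organoid pair all 9 members were higher with 4-OHT, by log2 differences of 1.88 to 4.02 with a median of 2.78, against a median of 0.00 over the 11407 genes that passed the filter. These are 1 array per arm, without a replicate check. At least 2-fold higher with 4-OHT were 239 genes (2.10%), and at least 2-fold lower were 85 (0.745%). The split was 104 to 626 with the values as deposited and 575 to 38 after centring each array on its median; these scalings move the median of all genes in this pair by -0.23 and 0.40. All 9 members stayed at least 2-fold higher under both, with ranges of 1.22 to 3.56 and 1.84 to 4.18. Anxa1, Nox1, Ly6g, Bex1, Sbspon and Krt4 passed the filter only through the treated array, where they had been chosen as high. Since the choice of members used this contrast, the background share is given for scale and nothing is read from it.

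**Figure D1:**
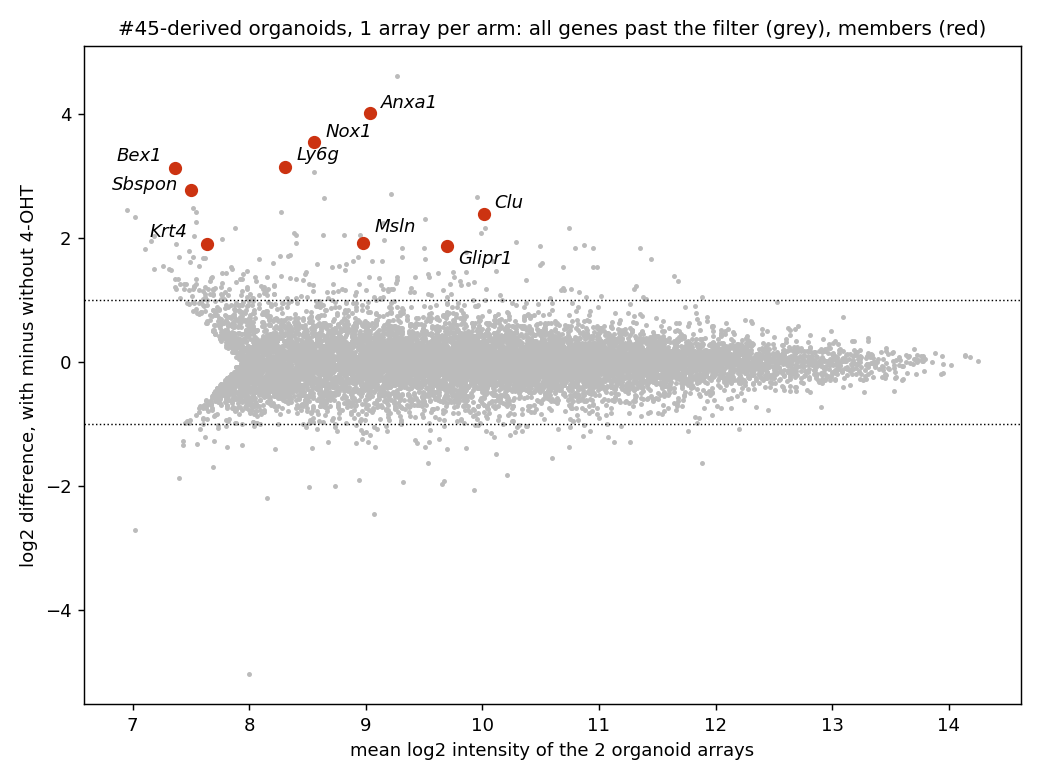
Log2 difference between the organoid arrays with and without 4-OHT (y axis) against their mean log2 intensity (x axis) for 11407 genes in grey and the 9 members in red, with dotted lines at a 2-fold difference. The members run from Glipr1 at 1.88 to Anxa1 at 4.02, all above the upper dotted line.

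Anxa1 encodes annexin A1, a calcium-dependent phospholipid-binding protein that limits inflammation and promotes epithelial repair. It lies at chr19:20373434-20390671 in GRCm38.p6, and ranked 2 of 11407 by its difference in the organoids, from 7.03 to 11.05 (log2 difference 4.02, 16.25-fold). In #45 MEFs it was at 12.78 and 12.70 without 4-OHT and at 12.51 and 12.57 with it, and in S33 MEFs at 12.26 without dox and 12.66 with it. RTC 1, 2 and 3 had 10.60, 10.91 and 10.88, #45 had 11.28 and #9 had 8.83. Apc Min/Min, +/+ and Min/+ ESCs had 10.76, 11.29 and 11.23, and S33 ESCs had 9.39 without and 7.85 with dox. MEFs were thus highest, above every pluripotent array, while the treated organoids fell inside the pluripotent range and the untreated organoids were lowest of all 18. Anxa1 was the only member above every pluripotent array in all 6 MEF arrays, a separation that 3034 of 13283 genes (22.8%) also showed.

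Clu encodes clusterin, a secreted chaperone that marks revival stem cells of the injured intestine. Its gene spans chr14:65968483-65981548. It went from 8.81 to 11.21 in the organoids (2.40, 5.27-fold), the treated array being the highest of the 18. #45 MEFs had 10.15 and 10.86 without 4-OHT and 9.81 and 10.68 with it, and S33 MEFs 9.69 and 9.16 without and with dox. Pluripotent arrays ran from 9.08 in RTC 1 through a median of 9.69 to 10.26 in RTC 2. MEFs and pluripotent cells overlapped, so no order is given. The spread of 0.48 (SD, n = 4) among #45 MEFs takes arrays with and without 4-OHT together. Untreated organoids were below all other arrays.

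Glipr1 encodes a secreted protein of the CAP superfamily, first described in glioma. The gene lies at chr10:111985448-112002639. Its organoid levels were 8.76 and 10.64 (1.88, 3.68-fold), and it was above the median before 4-OHT. #45 MEFs had 11.42 and 11.37 without and 11.09 and 11.24 with 4-OHT, while S33 MEFs had 10.15 without and 11.88 with dox. RTCs 1, 2 and 3 had 8.85, 10.70 and 9.63, #45 9.84 and #9 7.28. ESCs had 9.08 (Apc +/+), 8.77 (Min/+), 11.45 (Min/Min), 7.66 (S33 without dox) and 7.24 (S33 with dox), so the pluripotent range of 7.24 to 11.45 reached into the MEF range. The 18 arrays put Glipr1 near Anxa1 in pattern, with a Pearson r of 0.79 over all arrays and 0.74 over the 10 pluripotent ones, which differ in their fibroblast marker level.

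Nox1 encodes the catalytic subunit of the colonic NADPH oxidase that makes superoxide at the epithelial surface. It lies at chrX:134086421-134137711. Organoids had 6.79 without and 10.34 with 4-OHT (3.55, 11.70-fold), and the treated array was above the other 17. Pluripotent arrays spanned 5.65 to 6.11 with a median of 5.82 and MEFs 5.87 to 6.79 with one of 6.46, so all 16 other cultures were dim and their order has no meaning beyond that. Among its partners, Noxa1, the activator subunit, was 1.15 higher with 4-OHT, Noxo1, the organiser, 0.24 and Cyba, the membrane partner, 0.06. Of 13 family genes on the array 5 passed the filter, 1 was at least 2-fold higher (0 as deposited) and 0 lower, and the list median was 0.07. The median was -0.68 as deposited and -0.05 when centred, so no direction is given for this family.

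Ly6g encodes a GPI-anchored Ly6 protein best known from mouse neutrophils, and its relative Ly6a is the usual fetal gut marker of this family. It lies at chr15:75155261-75159128. Ly6 genes are similar in sequence and probes may pick up a relative, so its signal is uncertain. Organoids went from 6.73 to 9.88 (3.15, 8.90-fold), with every other array between 5.65 and 6.87 (medians 5.85 in pluripotent cells and 6.21 in MEFs). Ly6a, Ly6c1 and Ly6c2 were not among the single-symbol probe sets. Of the 13 family genes that were, 7 passed the filter, with Ly6d 1.18 higher, 0 lower and a list median of 0.31. As deposited the median was -0.44 with 0 at least 2-fold higher and 1 lower, so no direction is given for the family. Markers of neutrophils and other immune cells were above the median for 3 of 12 genes without and 2 of 12 with 4-OHT (means 7.43 and 7.28), and S100a8 (6.46 and 6.32) and Ptprc (5.91 and 6.32) were dim in both.

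Krt4 encodes a keratin of stratified squamous epithelium. It lies at chr15:101918535-101924735. Organoids read 6.68 without and 8.59 with 4-OHT (1.91, 3.76-fold), and every other array lay between 6.27 and 6.96 (medians 6.58 in pluripotent cells and 6.66 in MEFs). Its partner in squamous epithelium, Krt13, stayed dim (7.35 and 7.13), and 0 of 8 squamous markers were above the median in either organoid array. Of 14 other keratins 7 passed the filter and 0 were at least 2-fold apart (2 higher when centred), with a list median of 0.11 and -0.37 as deposited.

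Msln encodes mesothelin, a surface protein of mesothelium that several carcinomas also carry. It lies at chr17:25748613-25754378. Organoids had 8.02 without and 9.94 with 4-OHT (1.92, 3.79-fold), the treated array again the highest of 18. The 8 mesothelin relatives and mesothelial genes on the array had 0 at least 2-fold higher and a median of -0.31, and the 6 mesothelial markers had a mean of 7.40 in both organoid arrays. #45 MEFs had 8.45 and 8.81 without 4-OHT and 8.59 and 9.21 with it, S33 MEFs 9.62 without and 8.35 with dox. Pluripotent arrays ran from 7.75 to 9.20 with a median of 8.37, overlapping MEFs.

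Bex1 encodes a small adaptor-like protein with roles in neural progenitors and signalling. It lies at chrX:136213972-136215513. Organoids had 5.79 without and 8.92 with 4-OHT (3.13, 8.75-fold). Pluripotent arrays had 11.28 to 12.34 with a median of 11.88, and #45 MEFs 5.46 and 5.86 without and 5.50 and 5.91 with 4-OHT. S33 MEFs had 6.31 without and 9.09 with dox. Bex1 alone of the members was below every pluripotent array in all 6 MEF arrays, as were 2736 of 13283 genes (20.6%). A second probe set, annotated to Bex1 and Bex4 and not used here, does not follow: it read 5.98 and 6.39 in organoids (0.40) and 6.02 and 6.20 in S33 MEFs, yet 9.66 to 10.56 in the pluripotent arrays. The organoid and S33 MEF differences of Bex1 therefore rest on 1 of 2 probe sets that disagree. The Bex family list had 6 of 6 genes higher in the treated organoid array, median 0.88, but 1 alone passed the filter, and the median was 0.08 as deposited.

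Sbspon encodes a secreted protein with somatomedin B and thrombospondin domains. It lies at chr1:15853862-15892722. Organoids had 6.11 without and 8.90 with 4-OHT (2.78, 6.88-fold). S33 MEFs had 8.59 without and 9.92 with dox, and #45 MEFs 7.96 and 7.37 without and 7.25 and 6.84 with 4-OHT, so S33 MEFs with dox were the only array above the treated organoids. Pluripotent arrays were dim at 5.96 to 7.19 with a median of 6.40.

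**Figure D2:**
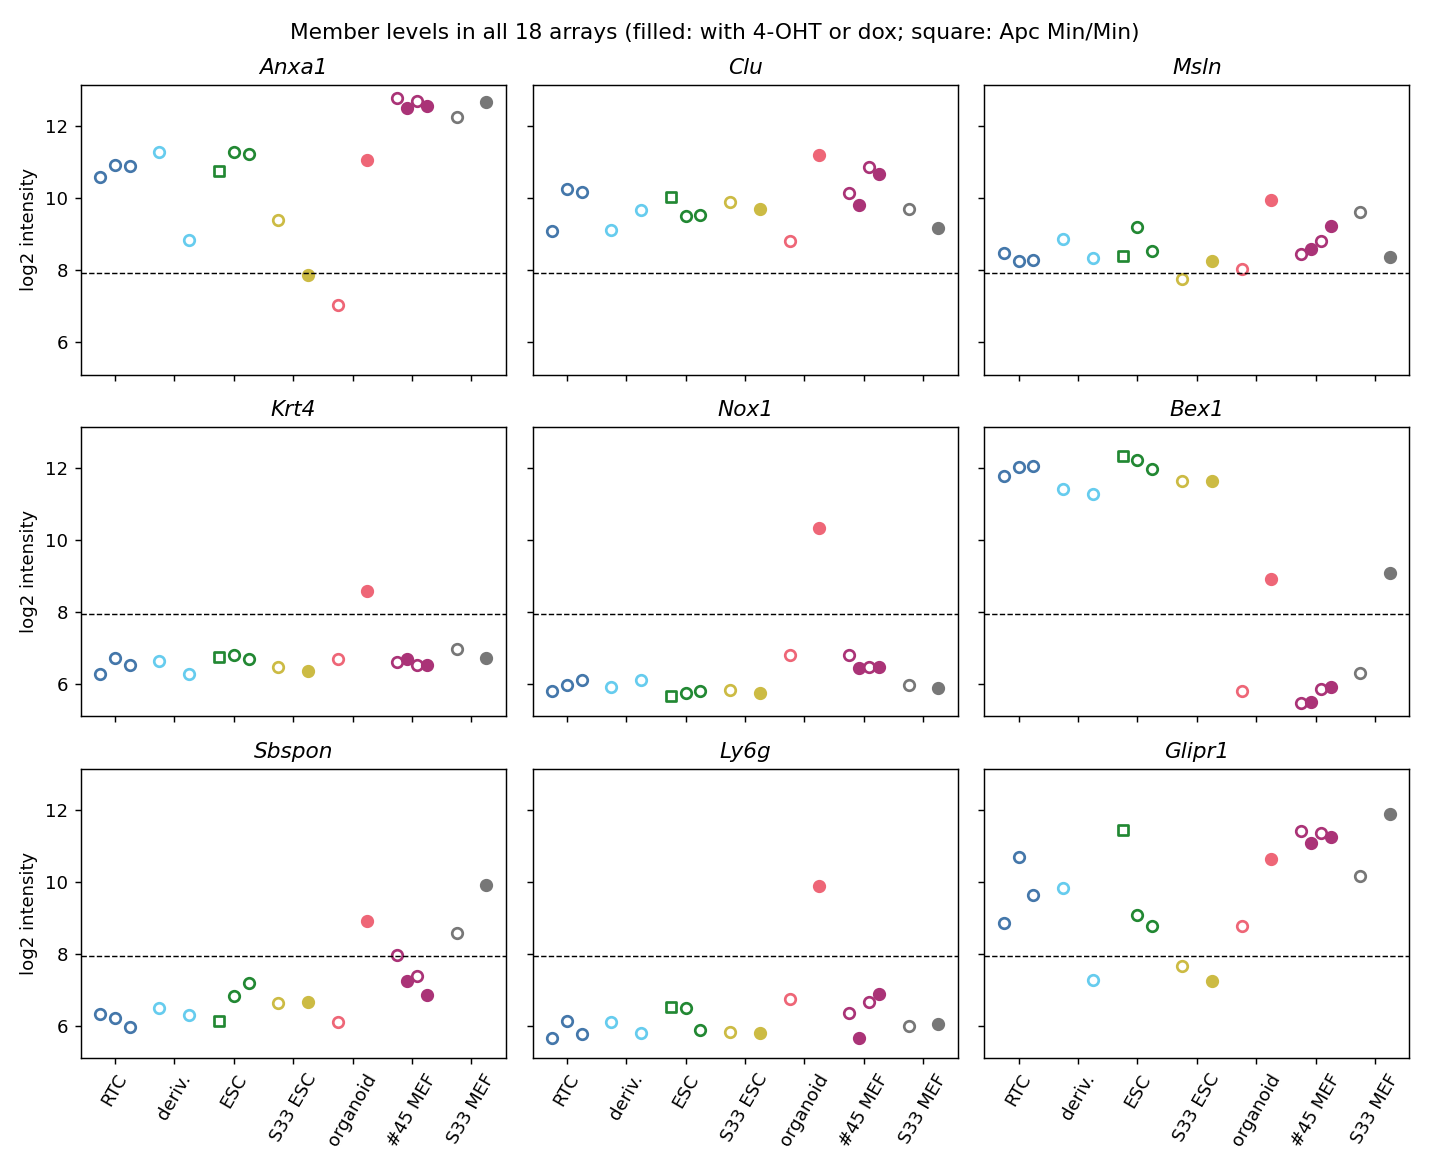
Log2 intensity (y axis) of each member in the 18 arrays, grouped by cell type on the x axis (RTCs, derivatives, ESCs, S33 ESCs, organoids, #45 MEFs, S33 MEFs); filled points had 4-OHT or dox, the square is Apc Min/Min, and the dashed line is the array median of 7.93. Nox1, Ly6g and Krt4 pass the line in the treated organoids only, Anxa1 is highest in MEFs and Bex1 in pluripotent cells.

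Counts for lists of related genes in the organoid pair stand beside the 2.10% of all genes at least 2-fold higher. Of 32 other fetal and regenerative gut genes on the array 25 passed the filter, of which 6 were at least 2-fold higher and 0 lower, with a list median of 0.37. As deposited 5 were at least 2-fold higher and when centred 11, with medians of 0.11 and 0.73. Il33, an alarmin cytokine, went from 6.27 to 8.76, Anxa5, another annexin, from 9.87 to 11.71 and S100a6, a calcium-binding protein, from 9.71 to 11.31. Of 20 YAP target genes 12 passed the filter, 6 were at least 2-fold higher and 0 lower, with a median of 0.54. As deposited 3 were at least 2-fold higher and the median was -0.19, so the direction of this list depends on the scaling. The secreted matricellular protein Ccn2 (1.44), the phosphatase Ptpn14 (1.38) and the LIM protein Ajuba (1.18) had the largest differences there. Of 18 Wnt target genes 16 passed, with 4 at least 2-fold higher and 0 lower (median 0.53). As deposited 2 were at least 2-fold higher and when centred 9, with medians of 0.37 and 1.00. The list was led by the Wnt antagonist Nkd1 (2.08), the receptor Tnfrsf19 (1.89) and the transcription factor Sp5 (1.11). Axin2, the Wnt feedback gene, went from 11.30 to 11.81 and Lgr5, the crypt stem cell receptor, from 12.59 to 13.02. The annexin list had 3 of 9 passing genes at least 2-fold higher, median 0.04 (2 higher, 1 lower and -0.08 as deposited), and the CAP superfamily 0 of 2, median -0.29. Intestinal epithelial markers had a mean of 12.73 without and 12.68 with 4-OHT, and fibroblast markers 7.41 and 7.42, although Fn1 among these went from 7.02 to 10.10. The part of other cells in these differences was not tested.

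**Figure D3:**
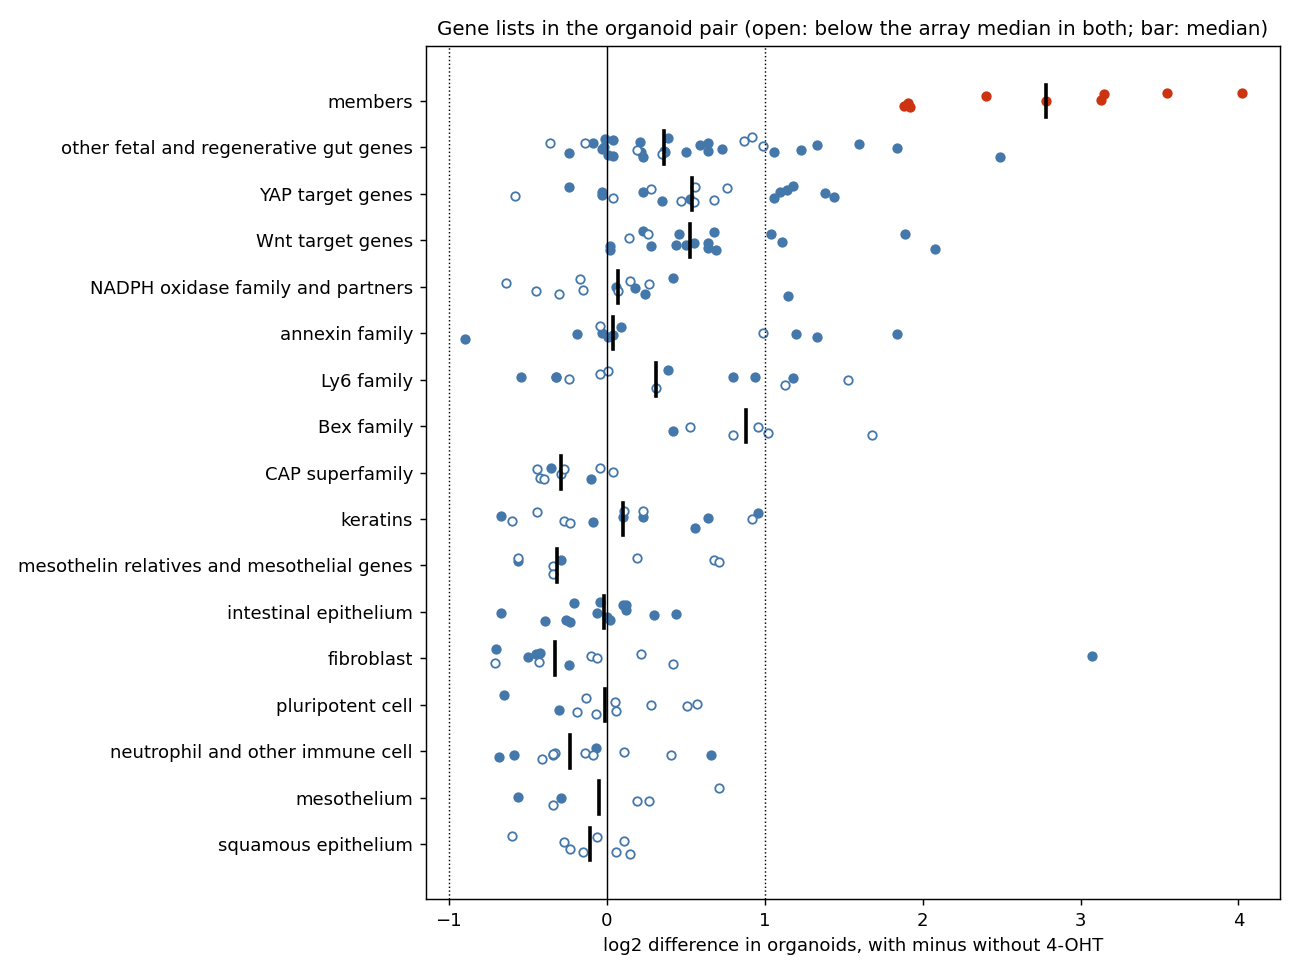
Log2 difference between the organoid arrays with and without 4-OHT (x axis) for each gene of the members and of 16 lists and marker sets (y axis); open points lay below the array median in both arrays, black bars are medians and dotted lines mark 2-fold. The members' median is 2.78, and that of the fetal and regenerative gut list is 0.37.

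By pattern over the 18 arrays, a description that used the same values, the genes most like Anxa1 were Casp12, Efemp1 and S100a6 (Pearson r 0.96, 0.96 and 0.95) among 13948 genes above the median in at least 1 array. Those most like Nox1 were Vtcn1, Prox1 and Krt39 (0.95, 0.95 and 0.93), and without the treated organoid array these fell to 0.76, 0.60 and 0.40. Krt4 and Ly6g likewise had r of 0.90 with each other and 0.31 without that array, so that likeness rests on 1 array. Bex1 was most like Lncenc1, Mkrn1-ps1 and Dppa2 (0.96 each), and Glipr1 most like Vnn1, Creb3 and Rap2c (0.92, 0.90 and 0.89). Sbspon was closest to Rassf9, Nkd1 and Scel (0.89, 0.88 and 0.86), Clu to Tmem229b (0.73) and Msln to Ccdc141 (0.79).

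In MEFs the 4-OHT differences ran from -0.71 to 0.40 over the members and both pairs, against 1.88 to 4.02 in the organoids. Taken between arrays of the same number (pair 1 and pair 2), which the labels do not say belong together, they were -0.27 and -0.13 for Anxa1, -0.34 and -0.18 for Clu and -0.71 and -0.53 for Sbspon. Those of Anxa1, Clu and Sbspon are opposite in sign to the organoid difference. Glipr1 was also lower in both pairs (-0.33 and -0.12), while Msln was higher in both (0.14 and 0.40). Of the dim members, Bex1 had 0.04 and 0.05, Krt4 0.07 and 0.00, Ly6g -0.71 and 0.19, and Nox1 -0.34 and level after rounding. The members were chosen as higher in the organoid pair, so the organoid sign was fixed in advance and nothing is read from this contrast. Members tested in the MEFs were 5 (Anxa1, Clu, Msln, Sbspon and Glipr1), the others being dim in all 4 arrays. Under limma without the pair number, 0 of the 5 passed, and so did 0 of 11605 genes (0%). In that fit 519 genes had an unadjusted p under 0.05, and the smallest adjusted p was 0.836. With the pair number as a block, 148 genes were called, Sbspon among them (limma adjusted p = 0.0476). All 5 members then had an unadjusted limma p under 0.05. Deviations of same-numbered arrays correlated at 0.855, with 2 pairs. The values that follow are from the fit without this block. The 4-OHT difference in MEFs was -0.20 ± 0.09 (SE) for Anxa1, with a 95% interval of -0.45 to 0.04, and -0.23 ± 0.10 for Glipr1 with one of -0.50 to 0.05 (limma adjusted p = 1.0 for each). Clu at -0.26 ± 0.41 and Msln at 0.27 ± 0.26 had wide intervals, -1.39 to 0.87 and -0.46 to 1.01, and both changed sign in fits that left out 1 array. Sbspon was at -0.62 ± 0.27, interval -1.37 to 0.14. The dose differed from that of the organoids and the organoid pair has no replicate, so the 2 cell types are set side by side without a test. The fibroblast markers had means of 12.37 and 12.34 without and 11.97 and 11.94 with 4-OHT, and immune markers 8.99 and 8.87 in pair 1 and 7.71 and 7.59 in pair 2. Their part in the differences was not tested. In simulated data with independent noise per array and 200 genes changed by 2 on the log2 scale, limma recovered 74.0% with this number of arrays. The simulated arrays shared no pair deviations, and the tested members differed by only -0.62 to 0.27. The share recovered therefore does not cover differences of that size. The fit without the pair number called 0 of 11605 genes, so none of the 10 gene lists could have a called gene in it. Tested there were 29 fetal gut genes, 20 YAP and 13 Wnt target genes. The lists were not read in the fit with the pair number. In each pair the YAP list had 0 genes at least 2-fold higher and 1 lower, Igfbp3 (-1.06 and -1.22). The fetal gut and Wnt lists had 0 either way. Over all genes that passed the filter, 36 of 11334 were at least 2-fold higher and 19 lower in pair 1, and 11 of 11235 and 33 in pair 2.

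With dox, 6 members passed the filter in S33 MEFs, of which 3 were at least 2-fold higher and 1 lower. Over all genes 2.50% were at least 2-fold higher and 3.71% lower. Bex1 was 2.78 higher on the Bex1-only probe set, Glipr1 1.73 and Sbspon 1.33, and Msln 1.27 lower (9.62 to 8.35). Mesothelial markers moved the same way as Msln here, from a mean of 9.78 to 8.50. Of these 6 markers, 5 were above the median without dox and 4 with it. In S33 ESCs with dox their mean went from 7.81 to 7.29, while Msln was 0.50 higher. With 4-OHT it was also lower in both MEF pairs (8.27 to 8.03 and 8.90 to 8.50), where Msln was 0.14 and 0.40 higher. In the organoid pair the mean was 7.40 in both arrays, and Msln was 1.92 higher. The part of these markers was not tested. Of 16 Wnt target genes that passed the filter in S33 MEFs, 10 were at least 2-fold higher with dox. Notum (3.29), Apcdd1 (2.95) and Axin2 (2.67) led these, and 2 were lower, Lgr5 (-1.50) and Sox9 (-1.15). In S33 ESCs, 4 members passed the filter and 1 was at least 2-fold lower, against 2.18% of genes. That was Anxa1, from 9.39 to 7.85. Among the other annexins 8 passed the filter, with 0 at least 2-fold higher, 2 lower (Anxa3 and Anxa5) and a median of 0.00 over the 11 on the array. Of 24 other fetal gut genes that passed, 0 were at least 2-fold higher and 7 lower, with a list median of -0.40. The mean of the fibroblast markers went from 9.22 to 8.64 there and that of the immune markers from 7.39 to 7.27, and their part was not tested. Each of the dox contrasts had 1 array per arm.

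**Figure D4:**
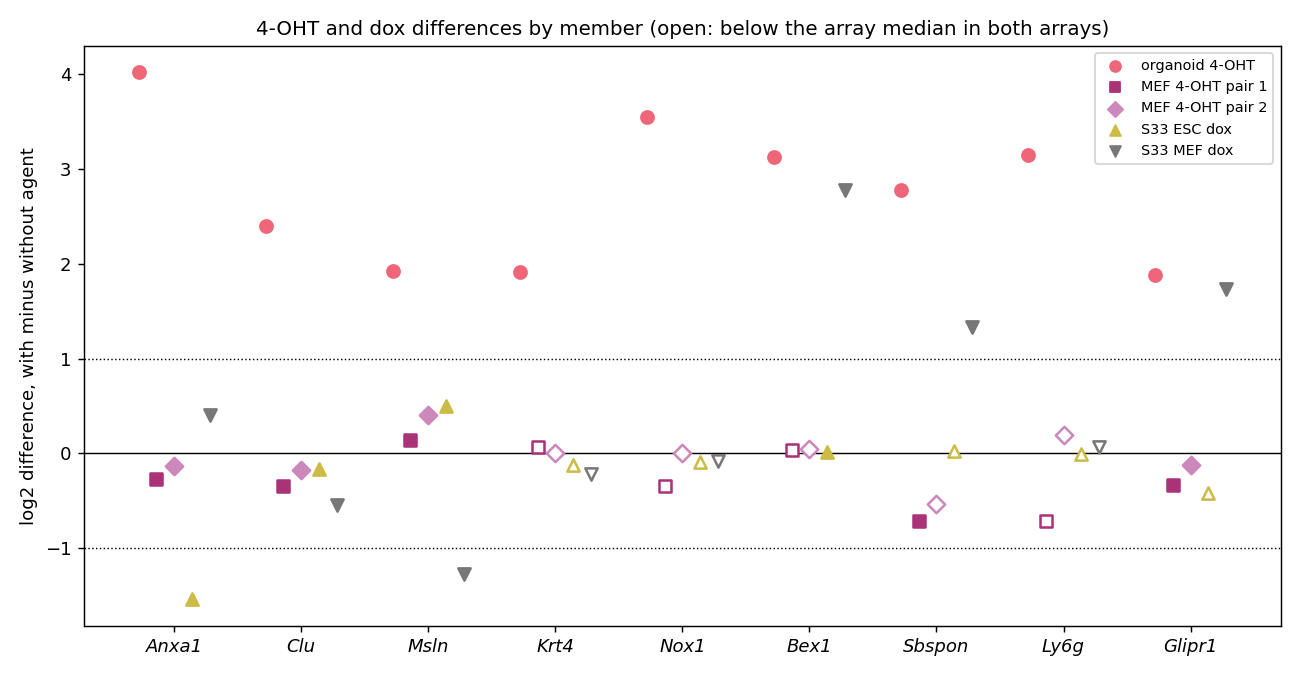
Log2 difference with minus without agent (y axis) for the 9 members (x axis) in the organoid pair, the MEF pairs, S33 ESCs and S33 MEFs; open symbols lay below the array median in both arrays, dotted lines mark 2-fold. All 9 members are above the 2-fold line in organoids, and 3 in S33 MEFs with dox.

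Among ESC lines, Apc Min/Min ESCs had 11.45 for Glipr1 against 9.08 in Apc +/+, a log2 difference of 2.37. Of the 5 members that passed, Glipr1 was the only one at least 2-fold higher, against 4.60% of 11391 genes (524 higher, 644 lower; 449 and 848 as deposited). Clu differed by 0.54, Anxa1 by -0.53 and Msln by -0.81. The medium may have differed between these lines. Fibroblast markers had a mean of 10.86 in Min/Min and 10.38 in +/+, and immune markers one of 7.52 and 7.06, with Lyz2 2.83, Fcer1g 1.18 and Tyrobp 1.01 higher in Min/Min. Their part was not tested, and genotype and culture cannot be told apart. Apc Min/+ ESCs had differences from Apc +/+ of -0.67 to 0.37 over the members.

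Whether RTCs resemble pluripotent cells in these genes was read against 3 ESC arrays, S33 without dox and the lines with Apc +/+ and Min/+. Of 12081 genes 810 (6.70%) were called between RTCs and ESCs, 390 higher and 420 lower in RTCs, but 213 and 145 of 358 as deposited and 273 and 598 of 871 when centred. None of the 5 members tested was called: 0 of 5 in limma, 1 at an unadjusted p under 0.05. Sbspon was dim in these arrays and not among the 5. With no filter on dim genes it was at -0.73 ± 0.18, lower in RTCs (limma adjusted p = 0.0635). Bex1 differed by 0.02 ± 0.17 (SE, n = 3 and 3, limma adjusted p = 0.966), with a 95% interval of -0.39 to 0.42. Glipr1 was 1.22 ± 0.51 higher in RTCs (limma adjusted p = 0.202, interval 0.03 to 2.42) and was 0.74 higher without RTC 2 and 0.80 without S33 ESCs, short of the threshold in every fit run. Anxa1 (0.16 ± 0.47), Clu (0.20 ± 0.31) and Msln (-0.16 ± 0.33) had limma adjusted p of 0.870, 0.739 and 0.816. Single arrays set these values: Anxa1 was -0.46 without S33 ESCs (limma adjusted p = 0.0924) and 0.49 without Apc +/+ ESCs, Msln -0.53 and 0.20 in the same fits, and Clu 0.58 without RTC 1 (limma adjusted p = 0.0988) and -0.01 without RTC 2. Of 26 other fetal genes tested, 4 were lower in RTCs and 0 higher: Krt7 (-1.27), a simple-epithelial keratin, the prostaglandin synthase Ptgs2 (-1.05), Krt17 (-0.84) and the TWEAK receptor Tnfrsf12a (-0.65), with limma adjusted p of 0.0218 to 0.0385. By contrast, Axin2 (1.75 ± 0.19) and Sp5 (1.52 ± 0.26) were the 2 of 16 Wnt target genes higher in RTCs (limma adjusted p = 0.00388 and 0.0173). Of 19 YAP target genes tested, 3 were lower in RTCs (Igfbp3, Amotl1 and Ajuba) and 0 higher, and of 5 Ly6 family genes 3 were higher (Ly6g6d, Ly6g6e and Ly6k) and 0 lower. Immune markers were higher too for 3 of the 5 tested (Lyz2 2.87, Tyrobp 1.55 and Cd3e 1.47). Fibroblast markers had means of 9.07, 9.71 and 9.53 in RTC 1, 2 and 3. In Apc +/+, Min/+ and S33 ESCs without dox these means were 10.38, 10.42 and 9.22, and 0 of 12 fibroblast markers were called. The part of either marker set in the called genes was not tested. Among keratins 2 of 6 were lower (Krt7 and Krt17), of the mesothelial list 1 of 4 (Lrrn4), and of the annexins 1 of 8 was higher (Anxa7), with 0 called in the NADPH oxidase, Bex and CAP lists.

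Between RTCs and the derivatives, 191 of 11945 genes (1.60%) were called, 100 higher and 91 lower in RTCs (58 and 23 as deposited), and 0 of 5 members. Bex1 was 0.60 ± 0.18 higher in RTCs (SE, n = 3 and 2, limma adjusted p = 0.203, 95% interval 0.17 to 1.02), in each of RTC 1 over #45 (0.35) and RTC 3 over #9 (0.77). Anxa1 had 0.74 ± 0.61 (limma adjusted p = 0.659), since RTC 1 was below #45 by 0.69 and RTC 3 above #9 by 2.05; without #45 the difference was 1.96 and passed (limma adjusted p = 0.0241), with 1 derivative array left that is assumed to vary like the RTCs. Without #9 it turned to -0.49 (limma adjusted p = 0.279), so its direction rests on which derivative is used. Glipr1 split the same way, at -0.98 and 2.34, for 1.17 ± 0.76 with both (limma adjusted p = 0.564), 2.44 without #45 (0.116) and -0.11 without #9 (0.947). Clu differed by 0.45 ± 0.37 and Msln by -0.26 ± 0.21. Of the other lists, 4 of 16 Wnt target genes were higher in RTCs (Axin2, Sp5, Rnf43 and Lef1), and 0 genes were called in the fetal gut, YAP, annexin, Ly6, Bex, CAP, keratin, oxidase and mesothelial lists. The derivative #9 was thus low in Anxa1 and Glipr1 while #45 was not. The mean of the fibroblast markers was 9.07 in RTC 1 and 9.27 in #45, and 9.53 in RTC 3 and 9.13 in #9. That of the immune markers was 7.61 in RTC 1 and 7.86 in #45, and 8.35 in RTC 3 and 7.55 in #9. Both means were lower in RTC 1 than in #45 and higher in RTC 3 than in #9, as Anxa1 and Glipr1 were. Single fibroblast markers differed in this: Dcn (0.21 and -1.11) and Fn1 (0.15 and -0.13) ran the opposite way. Lum (0.24 and 0.04) and Pdgfra (0.05 and 1.04) were higher in both RTCs. Of the immune genes, Lyz2 differed by -1.26 and 2.89, Fcer1g by -1.02 and 2.69 and Tyrobp by -0.68 and 1.87 (RTC 1 minus #45 and RTC 3 minus #9). Others of that list, S100a8, S100a9, Csf3r, Mpo and Cd3e, kept the same sign in both. The part of either marker set was not tested.

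**Figure D5:**
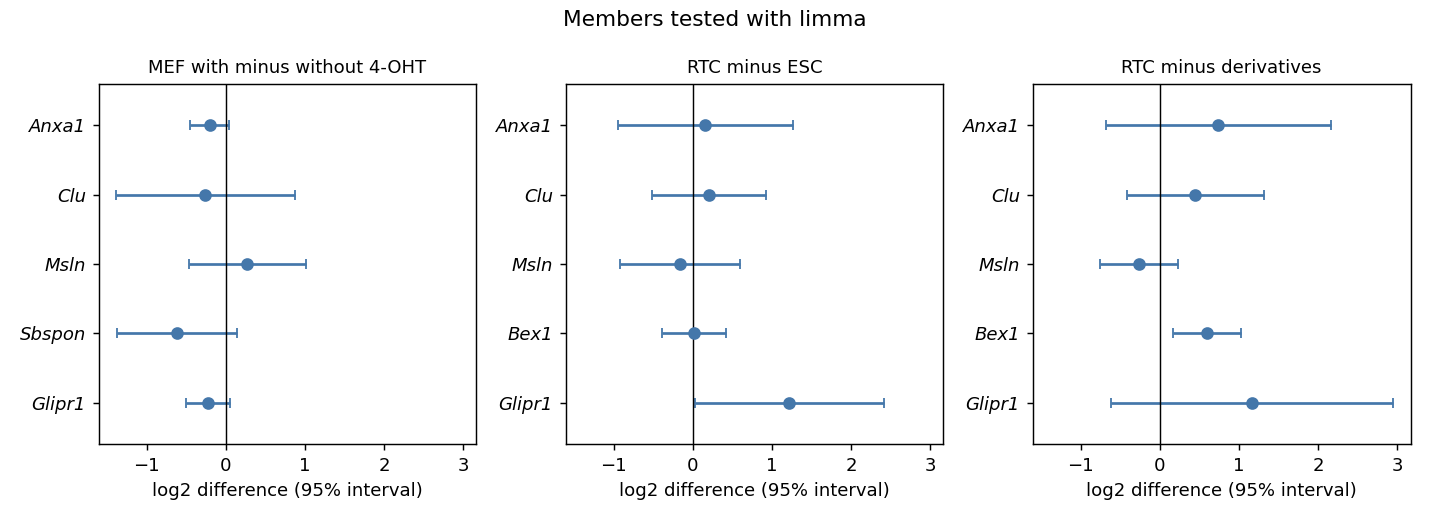
Log2 difference (x axis) with its 95% interval for the 5 members tested in each comparison with replicates, fitted without a replicate block: MEFs with minus without 4-OHT, RTCs minus ESCs and RTCs minus derivatives. Intervals that exclude 0 are those of Glipr1 in RTCs against ESCs (0.03 to 2.42) and Bex1 in RTCs against derivatives (0.17 to 1.02), neither passing after adjustment.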

How the data were processed

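The deposited values are linear intensities, 1 per probe set and array, from single-colour Affymetrix Mouse Gene 1.0 ST arrays; RNA was column-purified and biotin-labelled, per the labels' protocols. How background, probe summary and scale were handled is not stated in the labels or headers. Of 28856 probe sets, 3 without values were left out; 21789 had 1 symbol, 1621 several and 5443 none, and 21698 of the 21789 matched RefSeq (GRCm38.p6). Quantile normalization was applied to the log2 values of the 18 arrays jointly, because deposited values recurred between some arrays and the array medians ran from 141.6 to 317.2. The probe set with the highest mean stood for a gene. A gene entered a comparison if it was above the array median (percentile 50) in at least 1 array compared.

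Comparisons with replicates were fitted with limma 3.58.1 (R 4.3.3; lmFit and eBayes, two-sided, Benjamini-Hochberg over all genes tested, adjusted p threshold 0.05). The labels do not say that replicates were separate cultures, so p-values measure only the spread between these arrays. A self-test with independent noise per array and 200 genes changed by 2 on the log2 scale recovered 74.0% (MEFs), 91.5% (RTCs against ESCs) and 82.0% (RTCs against derivatives). It does not cover smaller differences. RTC and derivative arrays of the same line of origin pair by line, and their deviations correlated at 0.104 (RTC 1, #45) and 0.025 (RTC 3, #9). The members and gene lists were chosen with earlier results of these data known. Named genes are the members, Apc, Axin2, Lgr5 and the 3 genes most like each member. Up to 3 genes per list, at least 2-fold apart in the organoids or called, are also named. Noxo1, Cyba, Krt13, S100a8, Ptprc, Fn1 and other single fibroblast and immune markers were added after their values were seen. So were the dox and fetal-list values beyond these. Alternatives were the deposited values, median centring, the mean of a gene's probe sets, no filter, a replicate block and leaving out each array.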

Additional observations from a re-analysis of the deposited data

Results flagged for a closer look

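Members whose difference ran one way in 1 cell type and the other way in another were listed for a closer look, and none of these differences was tested. With 4-OHT, organoids were higher and both #45 MEF pairs lower for 5 members. The organoid difference minus the mean of the MEF pairs was 4.23 for Anxa1, 3.72 for Nox1, 3.4 for Sbspon, 2.66 for Clu and 2.11 for Glipr1, on the log2 scale. The organoid part of each value was used to choose the members, so nothing is read from its size or sign. Nox1 is dim in the MEFs, and its second pair was level after rounding. With dox, the difference in S33 MEFs minus that in S33 ESCs was 2.14 for Glipr1, 1.94 for Anxa1, -1.76 for Msln and 0.08 for Ly6g, which is dim in all 4 arrays. The probe set annotated to both Bex1 and Bex4, outside the comparisons, differed by 0.4 in the organoid pair, against 3.13 for the probe set of Bex1 alone.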

How the results depend on the processing

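The 9 members stayed at least 2-fold higher in treated organoids with values as deposited, with centred arrays and with the mean of probe sets, while the genes at least 2-fold higher there numbered 104 as deposited and 575 when centred, against 239. As deposited, RTCs against ESCs gave 358 called genes (810) and RTCs against derivatives 81 (191). Leaving out 1 array gave 234 to 1171 and 33 to 383. The count was lower by over 1.5 times without RTC 2 (281), RTC 3 (234), Apc +/+ (344) or Apc Min/+ ESCs (282) in the first, and without RTC 1 (33), RTC 2 (56), RTC 3 (37) or #9 (116) in the second, where leaving out #45 gave 383. The labels do not establish the MEF pair number as a pairing, though deviations of same-numbered arrays correlated at 0.855, with 2 pairs. As a replicate block the pair number gave 148 called genes, 54 higher and 94 lower, against 0 without it. Sbspon then had a limma adjusted p of 0.0476 at the same difference of -0.62. All 5 members tested had an unadjusted limma p under 0.05 in that fit. Blocking on the line of origin, RTCs against derivatives had 234 called genes and no call of a member changed. The interval of Bex1 included 0 in that fit (0.56 ± 0.28), which it did not without the block. Over the alternatives, members' limma adjusted p ran from 0.0476 to 1.0 in MEFs, from 0.0635 to 1.0 in RTCs against ESCs and from 0.0241 to 1.0 in RTCs against derivatives, the lowest being Anxa1 without #45. Members whose difference changed sign, none of them called in both directions, did so when 1 array was left out: in MEFs Clu (-0.70 to 0.17) and Msln (-0.04 to 0.58), in RTCs against ESCs Anxa1 (-0.46 to 0.49), Clu (-0.01 to 0.58), Msln (-0.53 to 0.20) and Bex1 (-0.14 to 0.15, and -0.11 with centred arrays), and in RTCs against derivatives Anxa1 (-0.49 to 1.96) and Glipr1 (-0.11 to 2.44). The cause of these changes was not tested. Single arrays per arm limit the organoid, dox and Min/Min values.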
